A study of Mus musculus with 13 samples.

Results

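E2F transcription factors and the retinoblastoma family are represented here by 9 genes: E2f1, E2f2, E2f3, E2f4, E2f7, E2f8, Rb1, Rbl1 and Rbl2. They were taken by symbol from the 19938 genes that the array table names with a single gene symbol. The family was chosen with earlier results of these data known. E2f3 has 2 probe sets on the array and the other members 1 each, and of these the brighter on average was read. RNA was measured on 13 arrays of erythroid cells sorted from the fetal liver of 6 mouse embryos at E14.5, with 1 mouse behind each sample. Every embryo carried EpoR-Cre ki/+, a Cre recombinase at the erythropoietin receptor locus that acts in the erythroid lineage, on a background the labels give as C57JB6. Knockout embryos were Adar1 fl/-, so that the RNA-editing enzyme ADAR1 is lost where Cre acts, and controls were Adar1 fl/+ with the same Cre. The R26 EYFP ki/+ reporter was present in all 3 controls and in knockout embryo 1, whereas knockout embryos 10 and 11 were R26 +/+. Ter119- CD71+ cells, the least mature population, were sorted from knockouts 1, 10 and 11 and from controls 2, 13 and 15, so n = 3 for each genotype. Ter119+ CD71+ cells came from 2 of those knockouts (10 and 11) and from the same 3 controls. In that population every knockout lacked the reporter and every control carried it, so reporter and Adar1 genotype cannot be told apart there. Ter119+ CD71med cells, the most mature population, came from controls 13 and 15 alone.

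E2F factors bind the promoters of genes needed for DNA synthesis and mitosis. E2F1, E2F2 and E2F3 act mainly as activators, E2F4 mainly as a repressor that recruits a pocket protein, and E2F7 and E2F8 as atypical repressors that bind DNA without a DP partner. The pocket proteins pRB (Rb1), p107 (Rbl1) and p130 (Rbl2) hold E2Fs inactive until cyclin-dependent kinases phosphorylate them, and p107 or p130 with E2F4 and the MuvB core form the DREAM complex, which silences cell cycle genes in resting cells. In fetal liver, red cell precursors divide rapidly and then leave the cell cycle as they mature, a passage in which pRB, E2F2 and E2F4 are known to matter.

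Several family genes are themselves read as E2F or DREAM targets, so the promoter stretches that hold a match are shown for the members whose values follow. Promoter windows of 250 bases before to 50 after an annotated start were taken from RefSeq (GRCm38.p6), which gave 9 windows for 7 of the 9 members. E2f4 and Rb1 had no window, so their promoters were not searched. Each window was searched on both strands for the E2F words TTTGGCGC, TTTCCCGC, TTTGCCGC and TTTCGCGC and for the CHR word TTTGAA, the cell cycle homology region element that DREAM reads through LIN54. Capitals mark the matched letters, printed 5′ to 3′ on the gene's own strand, so a word on the opposite strand appears as its reverse complement. E2F words are marked at Rbl1 (chr2:157204535-157204572, minus strand), at the upstream start of E2f2 (chr4:136172296-136172323, plus strand) and at E2f7 (chr10:110745221-110745268, plus strand):
Rbl1: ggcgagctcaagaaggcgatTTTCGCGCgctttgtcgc
E2f2: aatttggcggcatatagTTTGGCGCtaa
E2f7: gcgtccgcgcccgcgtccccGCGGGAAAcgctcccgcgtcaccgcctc
CHR words are marked at the second start of E2f2 (chr4:136180731-136180776, plus strand), at E2f8 (chr7:48881597-48881636, minus strand) and at Rbl2 (chr8:91069836-91069881, plus strand):
E2f2: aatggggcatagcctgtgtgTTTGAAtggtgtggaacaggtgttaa
E2f8: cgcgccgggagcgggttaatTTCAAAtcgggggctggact
Rbl2: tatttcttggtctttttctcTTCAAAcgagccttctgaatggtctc
E2f3 (chr13:29986064-29986106, minus strand) held both kinds, which did not overlap:
E2f3: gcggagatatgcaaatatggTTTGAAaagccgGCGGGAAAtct
An E2F word stood in 4 of the 9 member windows (44.4%), against 744 of all 32851 promoter windows (2.26%). The CHR word stood in 4 of 9 (44.4%), against 17.9% of all windows. Neither word was found in the E2f1 window or in the other E2f3 window. These are matches of letters, not shown binding sites.

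All values below are deposited log2 intensities after robust multi-array averaging, so a difference of 1 is a doubling. Array medians lay between 5.66 and 5.89. Differences were tested with limma on the whole table, and called where the Benjamini-Hochberg adjusted p was under 0.05. The probe set of the targeted gene, Adar, read 7.52 ± 0.13 (SD, n = 3) in knockout and 7.60 ± 0.34 (SD, n = 3) in control Ter119- CD71+ cells, which overlapped, and whether its probes lie in the deleted part is not given, so it does not check the labels. The 13 measured erythroid marker genes had a mean of 10.42 in control and 10.09 in knockout Ter119- CD71+ arrays, 11.28 and 10.89 in Ter119+ CD71+ arrays, and 11.41 in CD71med arrays, so the labelled cell type's markers lay well above the array medians in every group. The 2 knockout Ter119+ CD71+ arrays stood farther apart (median gap per gene 0.2465) than any arrays within the groups of 3 (0.1123 to 0.178), as did the 2 CD71med arrays (0.2049). Comparisons share arrays: the control Ter119- CD71+ and Ter119+ CD71+ arrays each serve both a knockout comparison and the maturation comparisons. In sorted bulk cells, fewer cells of a stage and less RNA per cell cannot be told apart.

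In the less mature Ter119- CD71+ cells, E2f2, E2f4 and E2f8 fell in the Adar1 knockout, by 1.45, 1.68 and 1.40-fold, so 3 of 9 members were called lower and 0 higher. Over all genes, 0.858% were called lower, 1.35% higher and 2.21% in either direction. All 6 E2F members had knockout arrays wholly below the control arrays, with differences of -0.75 to -0.49. Rb1 and Rbl2 had knockout arrays wholly above the controls, and Rbl1 overlapped. Groups did not overlap for 8 of 9 members (6 lower and 2 higher), against 21.5% of all genes (11.6% lower and 9.92% higher). The median difference over the 9 members was -0.50, beside 0.0016 over all genes.

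**Figure D1:**
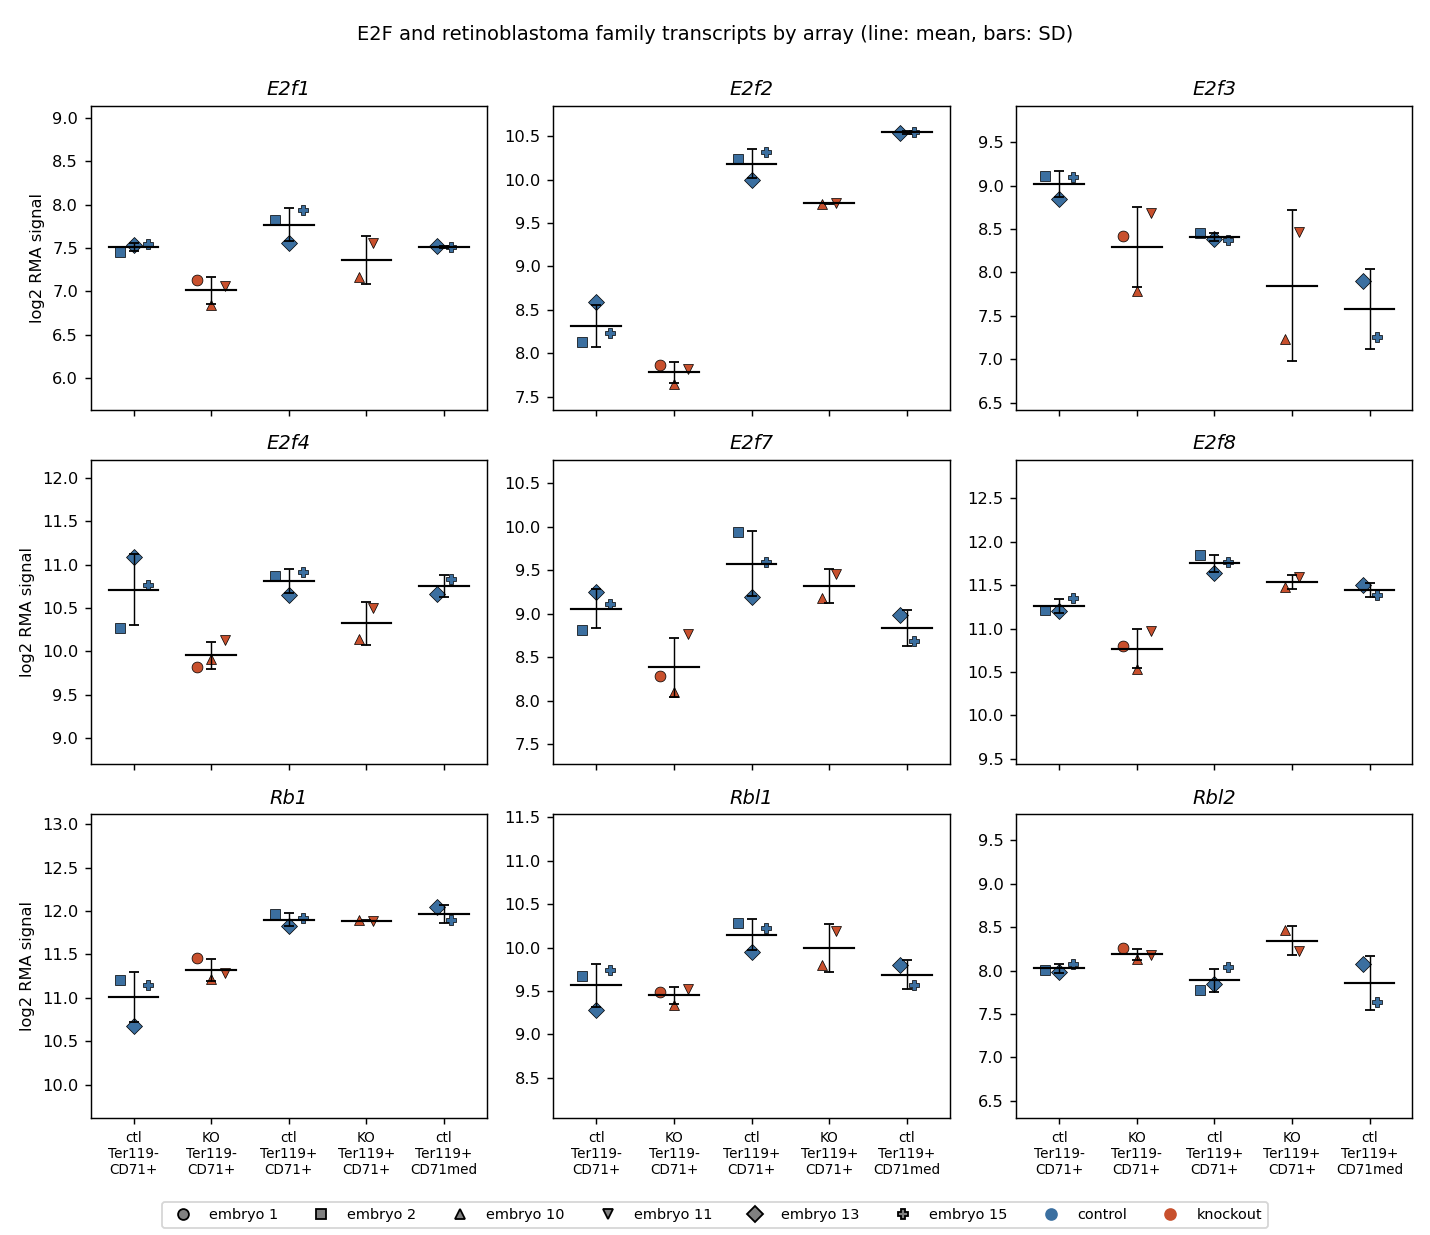
Log2 intensity of the 9 members on each of the 13 arrays, with 1 panel per gene, the 5 groups along the x axis, a point per array and a bar at the group mean. From Ter119- CD71+ to Ter119+ CD71+ cells the E2f2 mean climbs from 8.32 to 10.18 in controls and from 7.78 to 9.73 in knockouts. The knockout points of all 6 E2F genes lie below the control points in Ter119- CD71+ cells.

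Among the activators, E2f2 read 8.13, 8.59 and 8.23 in control Ter119- CD71+ cells of embryos 2, 13 and 15. Its knockout arrays, embryos 1, 10 and 11, read 7.87, 7.65 and 7.82. The lowest control thus lay above the highest knockout, and the difference was -0.54 (SE 0.13, 95% interval -0.81 to -0.26, adjusted p = 0.0485). In the more mature Ter119+ CD71+ cells the controls read 10.24, 9.99 and 10.32 and knockouts 10 and 11 read 9.72 and 9.73, again without overlap. That difference, -0.45 (SE 0.14, interval -0.76 to -0.14), did not pass the test (adjusted p = 0.141).

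E2f1, the founding member of the family, read 7.46, 7.53 and 7.54 in control and 7.13, 6.84 and 7.07 in knockout Ter119- CD71+ cells. The 3 controls lay within 0.1 of each other and all above the knockouts, and the difference of -0.50 (SE 0.13, interval -0.78 to -0.22) had an adjusted p of 0.0672. Its Ter119+ CD71+ controls read 7.82, 7.56 and 7.93 against 7.16 and 7.55 in the knockouts, a difference of -0.41 (SE 0.14, adjusted p = 0.198). Knockout embryo 11 lay only just under the lowest control there: the difference was -0.22 (adjusted p = 0.794) without knockout embryo 10, and -0.61 and called (adjusted p = 0.0384) without embryo 11.

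E2f3, an activator linked to cell cycle entry, was the most variable member. Its controls read 9.11, 8.84 and 9.10 in Ter119- CD71+ cells and its knockouts 8.42, 7.78 and 8.68, a difference of -0.72 (SE 0.28, interval -1.32 to -0.12, adjusted p = 0.230). Embryo 10 was the lowest knockout in both populations, and without it the Ter119- CD71+ difference was -0.47. The Ter119+ CD71+ controls read 8.46, 8.38 and 8.37, embryo 10 read 7.23 and embryo 11 read 8.46, so the groups overlapped. Without the embryo 10 array the Ter119+ CD71+ difference of -0.56 (SE 0.31, adjusted p = 0.531) became 0.06, so it rested on that library. A second E2f3 probe set gave 7.56 ± 0.02 in control and 7.02 ± 0.28 in knockout Ter119- CD71+ cells (SD, n = 3 each), and 6.73 ± 0.11 (n = 3) and 6.75 ± 0.69 (n = 2) in Ter119+ CD71+ cells.

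E2f4, the repressor E2F of the DREAM complex, had the largest difference of the family in Ter119- CD71+ cells. Its controls read 10.27, 11.08 and 10.77 and its knockouts 9.82, 9.92 and 10.13. The knockouts were close together and below even the lowest control, embryo 2, and the difference was -0.75 (SE 0.18, interval -1.13 to -0.37, adjusted p = 0.0451). For the Ter119+ CD71+ population its controls read 10.86, 10.65 and 10.91 against 10.15 and 10.50, without overlap, and the difference of -0.48 (SE 0.20, interval -0.91 to -0.06) did not pass (adjusted p = 0.299) and was -0.31 without embryo 10.

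The atypical repressor E2f8 read 11.21, 11.20 and 11.35 in control and 10.79, 10.54 and 10.98 in knockout Ter119- CD71+ cells. It fell by 0.49 on the log2 scale (SE 0.12, interval -0.74 to -0.23, adjusted p = 0.0499), with all 3 knockouts below all 3 controls. Its Ter119+ CD71+ arrays read 11.84, 11.64 and 11.77 in controls and 11.48 and 11.60 in knockouts, a difference of -0.21 (SE 0.13, adjusted p = 0.593) with no overlap. E2f7, its close relative, read 8.81, 9.25 and 9.12 in control and 8.28, 8.10 and 8.76 in knockout Ter119- CD71+ cells. Knockout embryo 11 lay just under the lowest control, and the difference of -0.68 (SE 0.20, interval -1.11 to -0.24) had an adjusted p of 0.113. E2f7 read 9.94, 9.19 and 9.60 in Ter119+ CD71+ controls and 9.18 and 9.46 in knockouts, a difference of -0.25 (SE 0.23, adjusted p = 0.76). Control embryo 13 lay below knockout 11 there, so the groups overlapped, and the difference was -0.07 without control embryo 2.

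No pocket protein gene passed the test in a knockout comparison. Rb1 read 11.20, 10.68 and 11.14 in control and 11.46, 11.22 and 11.28 in knockout Ter119- CD71+ cells, a difference of 0.31 (SE 0.13, interval 0.03 to 0.59, adjusted p = 0.288). Control embryo 13 was the low array, and without it the difference was 0.15 (adjusted p = 0.806). The Ter119+ CD71+ arrays of Rb1 read 11.96, 11.82 and 11.92 in controls and 11.89 in each knockout, and the interval of the difference ran from -0.33 to 0.31. Rbl2, which encodes the pocket protein of resting cells, read 8.01, 7.99 and 8.08 against 8.25, 8.13 and 8.18 in Ter119- CD71+ cells and 7.78, 7.84 and 8.04 against 8.46 and 8.23 in Ter119+ CD71+ cells. Every knockout array was above every control of its population, with differences of 0.16 (SE 0.12, adjusted p = 0.666) and 0.46 (SE 0.14, interval 0.16 to 0.76, adjusted p = 0.118). Rbl1, which encodes the pocket protein of dividing cells, overlapped in both populations, with differences of -0.12 (interval -0.44 to 0.20) and -0.16 (interval -0.51 to 0.20).

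Among the more mature cells 0 of 9 members were called by limma, against 2.56% of all genes (1.48% higher and 1.08% lower). There 4 of the 9 had an unadjusted p under 0.05, against 2572 of all 19938 genes. Groups did not overlap for 5 of 9, against 22.1% of all genes (10.7% lower and 11.4% higher). Among those 5, E2f1, E2f2, E2f4 and E2f8 were lower and Rbl2 was higher in the knockout. The median member difference was -0.25, beside 0.02 over all genes. Whether the knockout difference itself changed between the populations was tested as an interaction: 0 of 9 members were called, against 0.01% of all genes. An unadjusted p under 0.05 was held by 0 of the 9, against 1087 of all 19938 genes. The interaction values ran from -0.32 for Rb1 to 0.42 for E2f7, each with an adjusted p of 0.999. The intervals were wide, from -0.23 to 1.07 for E2f7 and from -0.34 to 0.50 for E2f2.

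**Figure D2:**
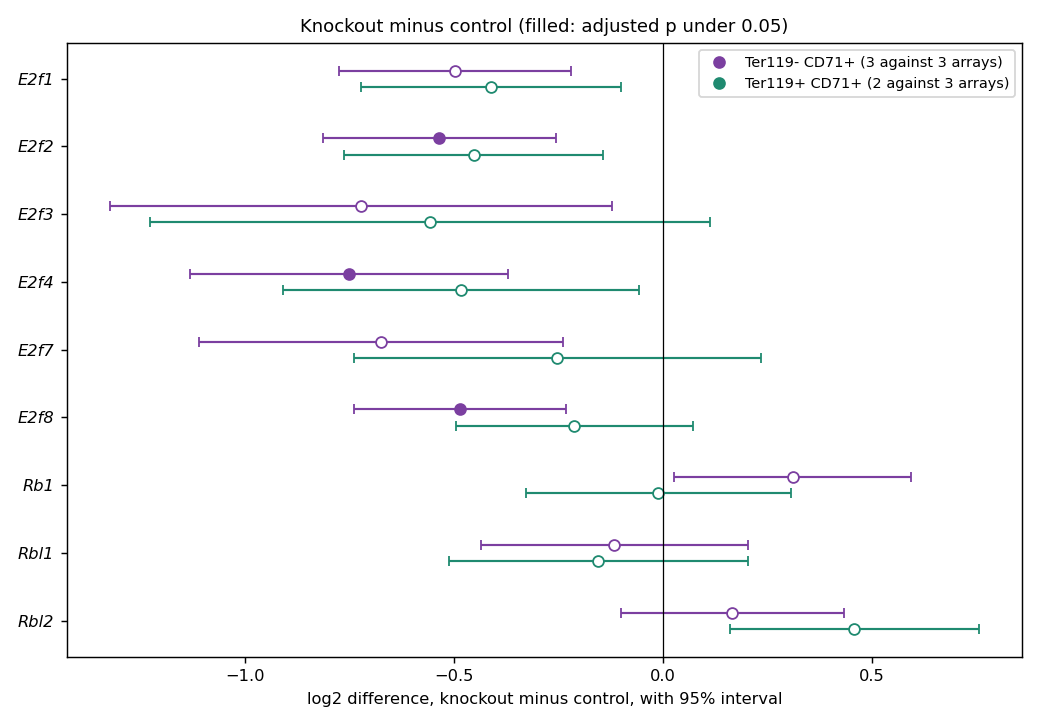
Knockout minus control difference in log2 intensity for each member, with its 95% interval from limma, in Ter119- CD71+ cells and in Ter119+ CD71+ cells; filled points passed the test. The 6 E2F genes lie at -0.75 to -0.49 in the less mature cells, and Rbl2 lies above 0 in both populations.

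The 3 calls lay just under the threshold. With 1 array left out at a time, E2f2 stayed called in 4 of 13 refits, E2f4 in 3 and E2f8 in 3. E2f2 kept its call only without control embryo 2 of the Ter119- CD71+ group or without control embryo 13 or either knockout of the Ter119+ CD71+ group, and was otherwise at adjusted p = 0.0633 to 0.254. E2f4 kept its call only without control embryo 2 of the Ter119- CD71+ group or either Ter119+ CD71+ knockout (otherwise 0.0520 to 0.200), and E2f8 only without knockout embryo 11 of the Ter119- CD71+ group or either Ter119+ CD71+ knockout (otherwise 0.0515 to 0.278). The differences themselves stayed negative in every refit, at -0.63 to -0.40 for E2f2, -0.97 to -0.57 for E2f4 and -0.59 to -0.37 for E2f8 with an array left out.

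Markers of other cells moved with the Ter119- CD71+ comparison. The mean of 19 neutrophil and myeloid markers lay at 5.18 to 5.58 in controls and at 5.96, 7.11 and 5.96 in knockout embryos 1, 10 and 11. Of the 19, 4 were called higher and 0 lower, against 1.35% and 0.858% of all genes. With that mean as a covariate, the differences of E2f4 and E2f2 were -0.84 and -0.49 (adjusted p = 0.819 and 0.832). Those of E2f1 (-0.30), E2f7 (-0.37), E2f8 (-0.19) and E2f3 (0.0041) shrank, that of Rb1 grew to 0.56, and none was called. Each knockout myeloid mean lay above every control mean in these cells, so the covariate cannot separate myeloid content from genotype. The myeloid means overlapped between genotypes in Ter119+ CD71+ cells (5.33 to 5.54 in controls, 5.38 to 5.49 in knockouts). E2f1, E2f2, E2f4 and E2f8 had knockout arrays below the controls in that population, but none of them was called. All 13 measured erythroid markers were lower in sign in the knockout in both populations, with 1 called in each and medians of -0.36 in Ter119- CD71+ and -0.31 in Ter119+ CD71+ cells. Of 14 measured hepatocyte markers, 12 and 13 were lower in sign in the same comparisons, with 0 and 1 called by limma. Over all genes 9888 and 8864 of 19938 were lower in sign, and 0.858% and 1.08% were called lower. With the EYFP genotype as a covariate the E2f2, E2f4 and E2f8 differences in Ter119- CD71+ cells were -0.45, -0.89 and -0.46, and none was called. What part of the E2F differences goes with myeloid cells, the reporter genotype or maturity was not tested.

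As control cells matured from Ter119- CD71+ to Ter119+ CD71+, E2f2, Rb1, Rbl1 and E2f8 rose, by 3.65, 1.86, 1.5 and 1.41-fold. That made 4 of 9 members called higher and 0 lower, against 7.27% and 11.7% of all genes (19.0% in either direction). Groups did not overlap for 6 of 9 (5 higher and 1 lower), against 34.5% of all genes (17.2% higher and 17.3% lower). The next step, to CD71med, held 1 called member: E2f7, which fell by 1.67-fold, where 9.21% of all genes were called lower, 4.11% higher and 13.3% in either direction. Groups did not overlap there for 6 of 9 (1 higher and 5 lower), against 44% of all genes (25% higher and 19% lower). Over the whole span E2f2 and Rb1 rose and E2f3 fell, so 3 of 9 were called, against 38.2% of all genes (18.1% higher and 20.1% lower), a share near the background. Groups did not overlap for 4 of 9 over the span (3 higher and 1 lower), against 60.6% of all genes (36.5% higher and 24.1% lower). Markers of other cells moved as well. Of 14 hepatocyte markers 9 were called higher in the first step and 12 over the span, against 7.27% and 18.1% of all genes. Over the span 7 of 14 macrophage, 6 of 7 megakaryocyte and 5 of 19 myeloid markers were called higher. So were 1 of 8 mast cell, 2 of 9 lymphoid and 3 of 8 endothelial markers, while 1 macrophage and 1 endothelial marker were lower. The share over all genes was 18.1% higher and 20.1% lower, and the myeloid, mast cell and lymphoid counts lay near it. Myeloid means were 5.96 and 5.97 in the CD71med arrays. What part these cells play was not tested.

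E2f2 was the member that moved most. Its arrays went from 8.13 to 8.59 in Ter119- CD71+ controls to 9.99 to 10.32 in Ter119+ CD71+ controls, a rise of 1.87 (SE 0.13, interval 1.59 to 2.14, adjusted p = 6.17e-07). CD71med cells read 10.53 and 10.55, above every other array, though that further difference of 0.36 (SE 0.14) did not pass (adjusted p = 0.123). In knockout cells E2f2 rose by 1.95 (SE 0.14, adjusted p = 3.58e-06), from 7.65 to 7.87 up to 9.72 to 9.73. The rises in knockout and control cells differed by 0.08, with an interval of -0.34 to 0.50. The order of its group means was knockout and control Ter119- CD71+ (7.78 and 8.32), then knockout and control Ter119+ CD71+ (9.73 and 10.18), then CD71med (10.54).

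E2f3 ran the other way. Its control arrays lay at 8.84 to 9.11, then 8.37 to 8.46, then 7.90 and 7.25 in CD71med embryos 13 and 15. Neither step passed alone (-0.61, adjusted p = 0.168, and -0.83, adjusted p = 0.102), but the span of -1.44 (SE 0.31, interval -2.11 to -0.77) did (adjusted p = 0.00227), which became 0.0520 without CD71med embryo 15. E2f1 and E2f4 were called in no control comparison. E2f1 means were 7.51, 7.77 and 7.51 and E2f4 means 10.71, 10.81 and 10.75 along the series. For E2f1 the groups did not overlap in either step (0.26, adjusted p = 0.218, then -0.26, adjusted p = 0.275), and array weights gave an adjusted p of 0.0441 for the first. The interval of the whole-span difference was -0.31 to 0.31 for E2f1 and -0.38 to 0.47 for E2f4.

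The control means of the atypical pair were highest in Ter119+ CD71+ cells, as were those of E2f1, E2f4 and Rbl1. Neither E2f7 nor E2f8 was called in both control steps. E2f8 rose by 0.50 (SE 0.12, adjusted p = 0.00784) into Ter119+ CD71+ controls, from a mean of 11.26 ± 0.08 to 11.75 ± 0.10 (SD, n = 3 each), and then stood at 11.50 and 11.38 in CD71med cells (-0.31, SE 0.13, adjusted p = 0.145). E2f7 went from 9.06 ± 0.22 to 9.58 ± 0.37 (0.52, SE 0.20, adjusted p = 0.10) and then fell by 0.74 (SE 0.23, interval -1.23 to -0.25, adjusted p = 0.0456) to 8.98 and 8.69. That call was kept in 6 of 13 refits with an array left out and reached an adjusted p of 0.320 without CD71med embryo 15. In knockout cells both rose between the Ter119- and Ter119+ CD71+ populations, E2f8 by 0.77 (SE 0.13, adjusted p = 0.00194) and E2f7 by 0.94 (SE 0.23, adjusted p = 0.0157). The knockout call of E2f7 was lost without knockout embryo 1 (0.0531) or 10 (0.0618) of the Ter119- CD71+ group or embryo 11 of the Ter119+ CD71+ group (0.0778). With the myeloid covariate E2f8 gave 0.50 (adjusted p = 0.135).

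Rb1 rose by 0.89 in controls (SE 0.13, interval 0.61 to 1.18, adjusted p = 0.000248), from 10.68 to 11.20 up to 11.82 to 11.96, and then stayed at 12.04 and 11.89 in CD71med cells. In knockout cells it rose by 0.57 (SE 0.15, adjusted p = 0.0232). That call was lost without knockout embryo 10 or 11 of either population (0.0553 to 0.115) and with array weights (0.119), and with the myeloid covariate the difference was 0.35 (adjusted p = 0.418). Rbl1 rose by 0.58 (SE 0.15, adjusted p = 0.0122) in controls, from 9.28 to 9.74 up to 9.94 to 10.28, and stood at 9.80 and 9.57 in CD71med cells (-0.46, SE 0.17, adjusted p = 0.0864). Its call was lost without control embryo 13 of the Ter119- CD71+ group (0.0642) or control embryo 2 of the Ter119+ CD71+ group (0.0598). Rbl2 passed in no maturation comparison, with control means of 8.02, 7.89 and 7.85. In the knockout step E2f2, E2f7, E2f8 and Rb1 were called higher and 0 members lower, 4 of 9, against 10.7% of all genes (4.5% higher and 6.24% lower). Groups did not overlap for 7 of 9, each higher, against 35% of all genes (17.9% higher and 17.1% lower).

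**Figure D3:**
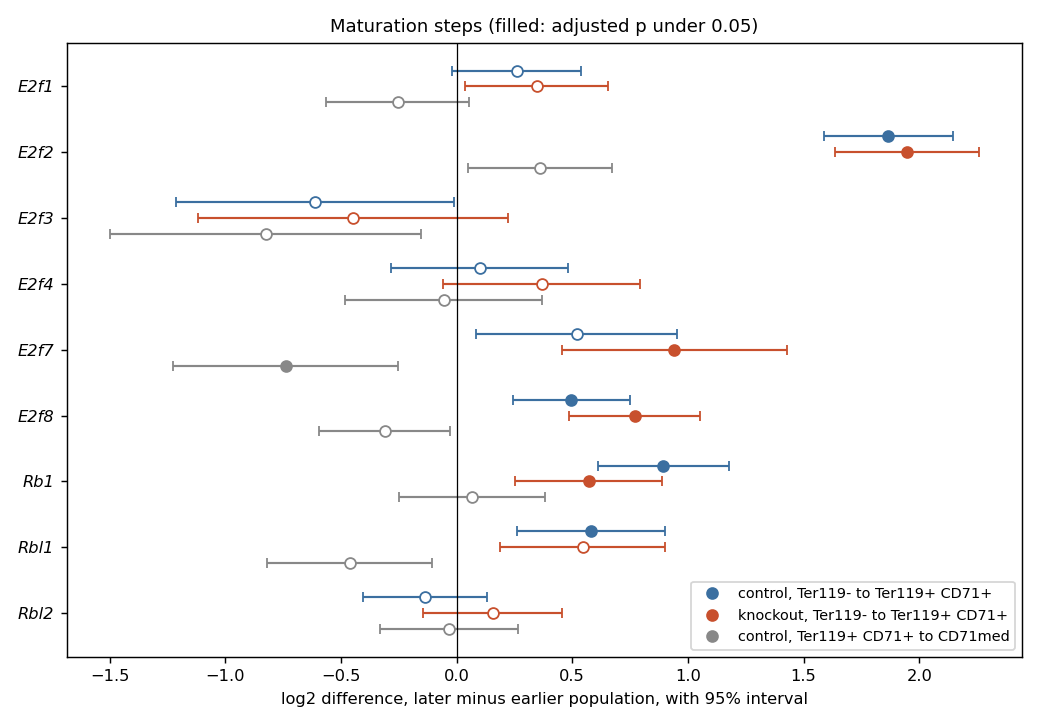
Difference in log2 intensity between successive populations for each member, with 95% intervals from limma, for the 2 control steps and the knockout step. E2f2 lies near 1.9 in the control and knockout steps from Ter119- to Ter119+ CD71+, and E2f3 lies below 0 in every step drawn.

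The kinases that phosphorylate the pocket proteins, with their cyclins and inhibitors, gave calls in both knockout comparisons. Of 15 measured cyclins, kinases and inhibitors, 1 rose and 2 fell in knockout Ter119- CD71+ cells, where 1.35% of all genes rose and 0.858% fell. Cdkn2c, which encodes the CDK4 and CDK6 inhibitor p18, fell by 1.07 (SE 0.22, adjusted p = 0.0207), Ccne1, cyclin E1, fell by 0.84 (adjusted p = 0.0266), and Cdkn1b, the inhibitor p27, rose by 0.89 (adjusted p = 0.0346). In the Ter119+ CD71+ knockouts Cdkn2d, the inhibitor p19, fell by 1.24 (SE 0.16, adjusted p = 0.000722), Cdkn2c fell by 0.996 (adjusted p = 0.0444) and Ccnd2, cyclin D2, rose by 1.07 (adjusted p = 0.00842), so 1 rose and 2 fell, where 1.48% of all genes rose and 1.08% fell. Along the control step 5 rose and 3 fell, where 7.27% of all genes rose and 11.7% fell: Cdkn2d rose by 2.87 and Cdkn1b by 1.64, while Cdk6, a G1 kinase, fell by 2.97 (adjusted p = 5.04e-07).

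Partners of the family were read from 3 further lists. Of the 4 other E2F and DP genes none was called by limma in either knockout comparison, against 2.21% and 2.56% of all genes. In those comparisons 1 and 2 of the 4 had an unadjusted p under 0.05, against 2825 and 2572 of all 19938 genes. Along the control step 1 of the 4 rose, where 7.27% of all genes did: Tfdp2, a DP partner, by 1.04 (adjusted p = 0.000256). Of 8 MuvB, MYB and FOXM1 genes 0 were called by limma in Ter119- CD71+ knockouts, against 2.21% of all genes. There 3 of the 8 had an unadjusted p under 0.05, against 2825 of all 19938 genes. In Ter119+ CD71+ cells 2 of 8 were called, both lower, against 1.08% of all genes. Mybl1, a MYB relative, fell by 0.99 (adjusted p = 0.00695) and Rbbp4, a histone-binding MuvB subunit, fell by 0.96 (adjusted p = 0.0243) there. The same list had 5 genes called higher and 0 lower in the control step, against 7.27% and 11.7% of all genes. Among the 5 were Rbbp4 (1.19), Mybl1 (0.97) and Lin54 (0.91), the DREAM subunit that binds the CHR word. Of 8 measured RB-associated chromatin genes 1 was called higher in knockout Ter119- CD71+ cells, against 1.35% of all genes. It was Arid4b, which encodes a pRB-binding protein (0.64, adjusted p = 0.0468). In the control step 2 of the 8 were called higher, Arid4b by 0.48 and Arid4a by 0.44, against 7.27% of all genes.

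Target genes of E2F and of DREAM moved at different steps of maturation. Of 39 measured G1/S genes, the E2F-driven set for DNA synthesis, 29 fell between Ter119+ CD71+ and CD71med controls and 0 rose. Over all genes 9.21% fell and 4.11% rose there. The G1/S median was -0.68, beside 0.08 over all genes. All 39 were lower in sign, from -1.17 to -0.04, and the count was 12 without CD71med embryo 15. In the step before, 5 rose and 1 fell, where 7.27% of all genes rose and 11.7% fell, and the G1/S median was 0.03. Brca1, a DNA repair gene, rose by 0.60 and Tyms, thymidylate synthase, by 0.42, and Dut, which removes dUTP, fell by 0.66. Of 29 measured G2/M genes, the DREAM targets for mitosis, 25 rose in that step and 0 fell. Their median was 0.65, beside 0.04 over all genes, of which 7.27% rose and 11.7% fell. The mitotic phosphatases Cdc25b (1.84) and Cdc25c (1.09) and the kinetochore gene Cenpf (1.21) led that list by adjusted p. From Ter119+ CD71+ to CD71med 0 of 29 G2/M genes were called by limma, against 13.3% of all genes, and the median was -0.01. There 2 of the 29 had an unadjusted p under 0.05, against 5488 of all 19938 genes.

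In the knockout most genes of both target lists were lower in sign. Of 39 G1/S genes in Ter119- CD71+ cells 36 were lower in sign and 3 were called lower, where 0.858% of all genes were, with a median of -0.28 beside 0.0016 over all genes: Fen1, the flap endonuclease (-0.68, adjusted p = 0.0397), Rrm2, a ribonucleotide reductase subunit (-0.51, adjusted p = 0.0447), and Tyms (-0.41, adjusted p = 0.0484). Among G2/M genes 21 of 29 were lower in sign and 3 were called, with a median of -0.13: Kif20a, a mitotic kinesin (-0.62, adjusted p = 0.0315), Cdc25b (-0.66, adjusted p = 0.0347) and Cdc25c (-0.47, adjusted p = 0.0483). Both counts were 0 without knockout embryo 10 of that group and 0 with the myeloid mean as a covariate, and with array weights they were 23 and 12. Among Ter119+ CD71+ knockouts 0 of 39 G1/S genes were called by limma, against 2.56% of all genes, and the median was -0.16. An unadjusted p under 0.05 was held by 6 of the 39, against 2572 of all 19938 genes. Of 29 G2/M genes in those knockouts, Cdc25c alone was called (-0.52, adjusted p = 0.0488), where 1.08% of all genes were called lower. The G2/M median was -0.26.

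**Figure D4:**
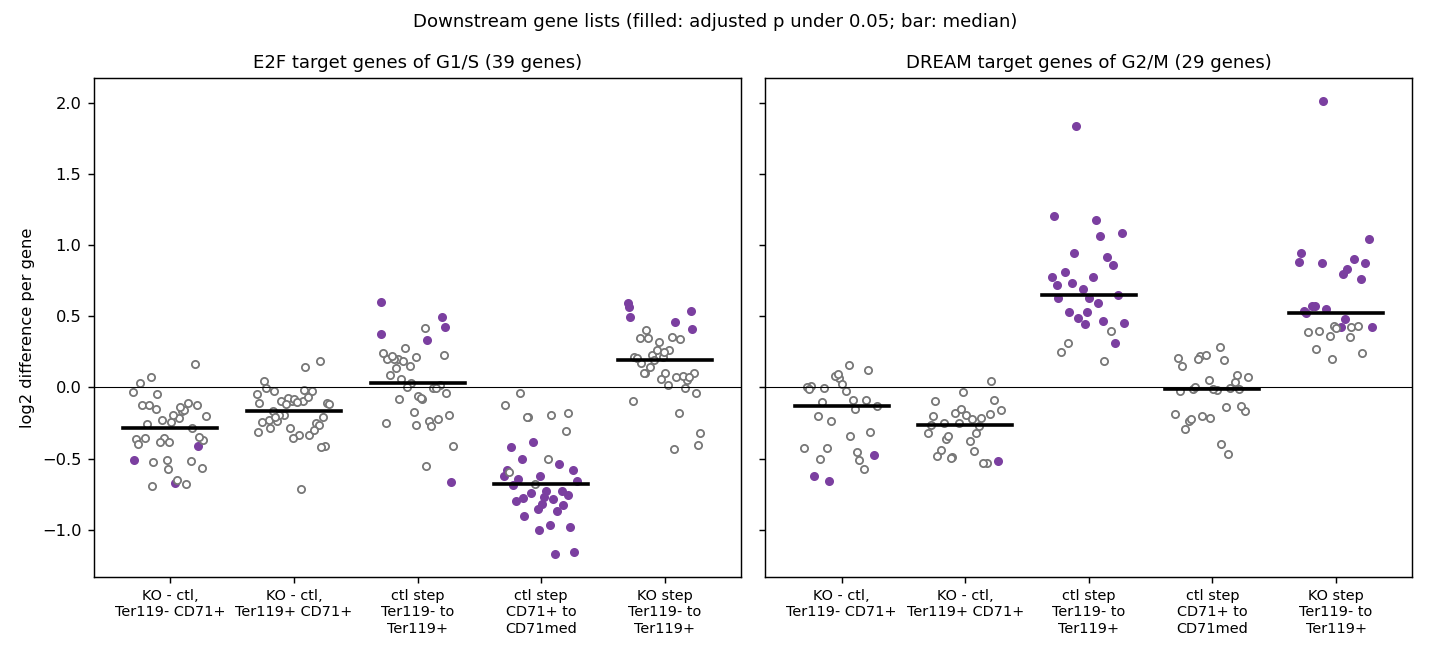
Differences in log2 intensity of the measured G1/S genes and G2/M genes in the knockout and maturation comparisons, with a point per gene, filled where called, and a line at the list median (KO, knockout; ctl, control). The G2/M genes lie above 0 in the control step from Ter119- to Ter119+ CD71+ (median 0.65), and the G1/S genes lie below 0 in the step to CD71med (median -0.68).

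The promoters of these lists differed in the words they held. An E2F word stood in 16 of 42 G1/S windows (38.1%) and in 1 of 27 G2/M windows (3.7%), against 2.26% of all windows. The CHR word stood in 21 of 27 G2/M windows (77.8%) and in 5 of 42 G1/S windows (11.9%), against 17.9% of all.

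Genes with array profiles most like a member's were found by the root mean square difference of values centred on each gene's mean, over all 13 arrays, for the 3 members whose group means spanned at least 1. Nearest to E2f2 were Cdc25b at 0.123, Ackr1 at 0.166 and Rbm38 at 0.167, beside a root mean square of 1.10 for E2f2 about its own mean. Nearest to E2f3, itself at 0.587, were Ufm1 at 0.180, Kbtbd4 at 0.190 and Zdhhc2 at 0.193. Nearest to E2f7, itself at 0.488, were Samd14 at 0.148, Donson at 0.176 and Mybl2 at 0.181. These distances ran from 0.123 to 0.193 for the 3 members, while E2f2 itself moved most. The neighbours were picked as the closest on these same arrays, so their closeness was not tested.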

How the data were processed

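RNA of 13 sorted fetal liver samples was measured on mouse whole-transcript arrays. The deposited values are log2 intensities made by robust multi-array averaging (RMA), per the submitters' processing notes, which also name mm9 with no role; array number, not depth, limits their precision. Of 35556 probe sets, 21789 had a single gene symbol, 1621 several and 12146 none listed; for 999 genes with several probe sets the one with the highest mean was kept. limma 3.58.1 in R 4.3.3 fitted 5 group means over all arrays (8 residual and 5.56 prior degrees of freedom), two-sided, with Benjamini-Hochberg adjustment over 19938 genes, after the code was tested on simulated data. The members and gene lists were chosen with earlier results of these data known. Named genes were all members, the up to 3 called genes with the smallest adjusted p of each list in both knockout comparisons and the first control step, and the 3 nearest profiles of members spanning at least 1. Replicate numbers are embryo numbers in the titles: arrays of one embryo correlated at -0.23 to 0.35 over 9 pairs of deviations from group means, 4 of them above 0.1, with a consensus correlation of 0.00385, and arrays of different embryos at -0.43 to 0.43 over 58. The embryo as a random block changed no member's call. In all, 12 other settings were tried, with each array left out in turn and, chosen after seeing the data, both arrays of knockout embryo 10. Figures were drawn with Python 3.11.15 and matplotlib 3.10.9.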

Additional observations from a re-analysis of the deposited data

How the results depend on the processing

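Of 1057 refits of 43 member results, 943 kept direction and call, 78 lost the call, 26 gained it and 10 changed sign, none of the 10 for a called value. Most of the 43 were not called in the main fit and so could not lose a call. The knockout differences called in Ter119- CD71+ cells kept the call in 8 refits for E2f2, 8 for E2f4 and 9 for E2f8. They lost it in 16, 16 and 15. The count of members called in knockout Ter119- CD71+ cells, 3, was 1 after renewed quantile normalization, 6 with array weights, and 0 with median-centred arrays, the EYFP genotype or the myeloid mean as a covariate, a minimum difference of 1, only the groups compared, or without both arrays of embryo 10; it ranged from 0 to 4 with an array left out. In Ter119+ CD71+ cells, 0, it ranged from 0 to 2. For the first control step, 4, it was 7 with array weights (6 higher and 1 lower), 1 at a minimum difference of 1, and 3 to 5 with an array left out. For the second, 1, it was 0 after quantile normalization, with array weights, either covariate or a minimum difference of 1, 2 without both embryo 10 arrays, and 0 to 2 with an array left out. For the control span, 3, it ranged from 2 to 4. For the knockout step, 4, it was 2 with array weights, 1 with the myeloid covariate, 1 at a minimum difference of 1, 2 without both embryo 10 arrays, and 2 to 5 with an array left out. The interaction count was 0 throughout. With the embryo as a fixed replicate block, E2f3 was called in both control steps (-0.61, adjusted p = 0.0215, and -0.79, adjusted p = 0.0206) and E2f7 lost its call in the second (-0.71, adjusted p = 0.0725), which gave 5 and 1 members called in those steps.

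Values that changed sign were E2f3 (0.0041) and Rbl1 (0.15) in Ter119- CD71+ knockouts with the myeloid covariate. In Ter119+ CD71+ knockouts they were E2f3 (0.057; -1.17 to 0.057 with an array left out) and Rbl1 (0.039; -0.35 to 0.039) without the embryo 10 arrays, and Rb1 after quantile normalization (0.081), with the EYFP covariate (0.20) and without control embryo 2 (0.018; -0.050 to 0.018). Reporter and Adar1 genotype coincide in the Ter119+ CD71+ arrays, so the EYFP covariate cannot separate them there. E2f4 in the first control step was -0.12 without Ter119- control embryo 2 (-0.12 to 0.29). The cause was not tested. Over all genes, the counts called were 441 (135 to 1006 with an array left out, 21 to 3151 otherwise), 510 (162 to 1546, 17 to 574), 3789 (2884 to 4173, 1081 to 6349), 2656 (867 to 3351, 485 to 3089), 7615 (5178 to 8506, 2742 to 8175) and 2143 (1156 to 3357, 556 to 2283) in the 2 knockout, 3 control and 1 knockout step comparisons. Renewed quantile normalization shifted the median of all genes by up to -0.12 and median centring by up to -0.14, both for the control span.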
